A study of Mus musculus with 30 samples.

Results

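The subject is a set of 30 probes of an Illumina mouse bead array, out of 45281 on the array, whose signal was much stronger in ribosome-bound RNA of 2 kinds of hindbrain neuron than in RNA of the whole hindbrain. The members were selected on measured values. Each had a detection p under 0.01 on all 15 arrays of ribosome-bound RNA, and its mean on those arrays exceeded its mean on the total RNA arrays by at least 2.5 log2 units in each line. Those log2 units are a 5.66-fold difference. Among the 11094 probes detected on all 15 arrays, the set makes up 0.270%.

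Ribosome-bound RNA came from translating ribosome affinity purification (TRAP), in which an EGFP-tagged copy of ribosomal protein L10a (Rpl10a) is made in chosen cells and precipitated together with the RNA being translated there. Slc6a2 encodes the noradrenaline transporter, which takes noradrenaline back into noradrenergic neurons such as those of the locus coeruleus, and Slc6a4 encodes the serotonin transporter of the serotonergic neurons of the raphe nuclei. Both kinds of neuron make a monoamine transmitter, are few in the hindbrain and send axons through much of the brain.

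The mice carried either the Slc6a2 transgene Tg(Slc6a2-EGFP/Rpl10a)JD1538Jdd/J or the Slc6a4 transgene Tg(Slc6a4-EGFP/Rpl10a)JD60Jdd/J, both on a B6;FVB background, and no mouse without a transgene was analysed here. There were 16 adult males and females, 6 to 12 weeks old, kept at 30 °C, which received intraperitoneal lipopolysaccharide (LPS, a bacterial cell wall component that brings on fever) at 100 ug per kg or sterile PBS. Total RNA came from the hindbrain lysate before the precipitation (Pre-IP) or from what was left after it (Unbound), and the 2 were pooled, as in the study's protocol. The arrays numbered 8 for Slc6a2 TRAP, 7 for Slc6a4 TRAP, 7 for Slc6a2 total RNA and 8 for Slc6a4 total RNA. Every combination of line, RNA, sex and treatment had 1 array in each of 2 whole transcriptome amplification batches, except that Slc6a4 TRAP from PBS males and Slc6a2 total RNA from LPS males had 1 array only. A line serves as a model only of cells in which its transgene is active. Since every mouse analysed carried a transgene, RNA that precipitates without the tagged protein was not measured. The label of a TRAP array could not be checked against marker genes, since the probes are known here by ID alone. For the same reason no sequence, gene or location is given for a probe, and whether members report the same transcript was not tested.

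A TRAP array detected 15432 to 19424 probes and a total RNA array 20395 to 23122. The lowest count came from Slc6a2 TRAP, on the array of the PBS male of batch 2, and the line and LPS counts in TRAP RNA are also given without it. Batch 1 held all the Pre-IP arrays and batch 2 all the Unbound arrays, so those 2 factors cannot be told apart. The letter in the sample titles, which may mark a slide, goes with the line except for letter C, with 4 TRAP arrays of both lines, and letter F, with 1 Slc6a2 and 2 Slc6a4 arrays of total RNA. Probes that LPS raised in total RNA served as a check on the treatment labels. Of 18 such probes 17 could be followed in TRAP, and their mean level on the Slc6a4 TRAP array of the LPS female of batch 1 was 6.32 log2 units, within the range of the Slc6a4 TRAP arrays of PBS mice (6.16 to 6.51). The total RNA array of the same line, sex, treatment and batch read 7.00, the lowest of the LPS total RNA arrays. The 18 probes were called on the total RNA arrays with these labels, so their levels there are no separate check. The library labelled LPS there thus showed little of that response. In Slc6a2 TRAP the PBS female of batch 1 read 6.94, above the 6.08 to 6.28 of the other PBS arrays and under the 7.13 of the lowest LPS array. The LPS results are given with and without these arrays.

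Enrichment in TRAP RNA is what selected the members, so it is described here and not tested. In the Slc6a2 line the mean TRAP level exceeded the mean total RNA level by 2.56 to 4.61 log2 units over the 30 members, with a median of 3.38 (10.4-fold). In the Slc6a4 line the difference ran from 2.53 to 5.11 with a median of 2.95 (7.73-fold). The medians over all probes were 0.059 and 0.036. These differences take every signal as measured, although 5 members were detected on none of the Slc6a2 total RNA arrays and 2 of these on none of the Slc6a4 arrays, so that their differences are against background. With those put at their bound, the lowest signal of a detected probe, the ranges were 2.32 to 4.41 and 1.95 to 5.11, and 2 members, ILMN_1256024 and ILMN_2638324, were under 2.5 at their bound. In bulk RNA a larger number of cells of a type and more RNA per cell cannot be told apart. The difference was larger in the Slc6a2 line for 17 members and in the Slc6a4 line for 13, and 11 members were at or above 3 log2 units in both, counts that were the same with the bounds. Across the members, which share their arrays and normalization and are not independent, the 2 differences had a Pearson's r of 0.22 and a Spearman's rho of 0.12 (0.18 and 0.20 with the bounds). The rule cut both differences at 2.5 log2 units, which shapes these values. They do not show how the enrichments of the 2 lines are related over all probes. Separately, 72 of the probes detected on all TRAP arrays were at or above 2.5 log2 units for Slc6a2 and 49 for Slc6a4. The 5 members nearest the threshold had a smaller difference of 2.53 to 2.56, and the 5 probes just outside it had 2.39 to 2.47. A further 5 probes passed both thresholds but were not detected on all TRAP arrays.

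**Figure D1:**
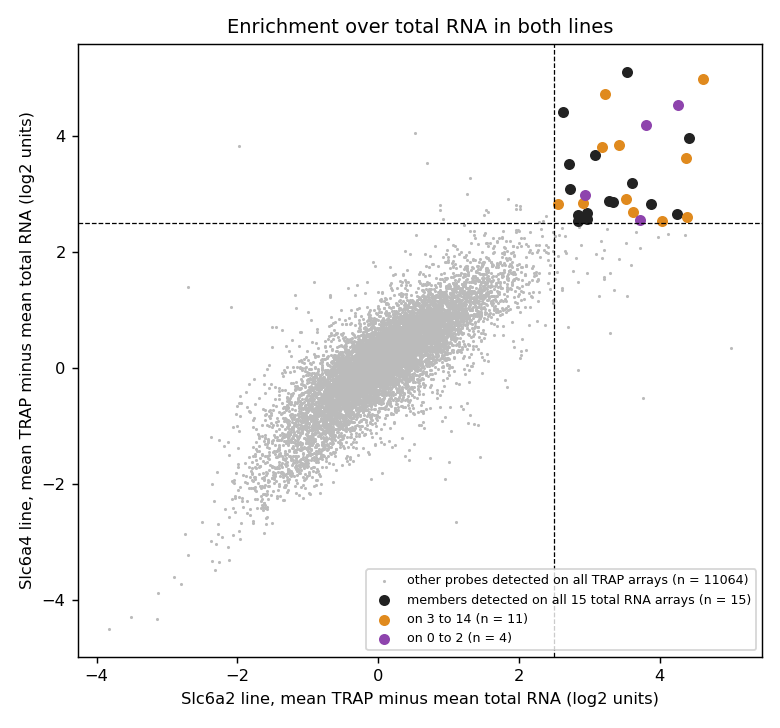
Mean TRAP minus mean total RNA level (log2 units) in the Slc6a4 line against the same in the Slc6a2 line, for the probes detected on all 15 TRAP arrays, with the 30 members coloured by the number of total RNA arrays that detected them (15 on all, 11 on 3 to 14, 4 on 0 to 2) and the threshold of 2.5 drawn as dashed lines. The members fill the corner beyond both lines, up to 4.61 for Slc6a2 and 5.11 for Slc6a4.

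The enrichment is also described pair by pair, on the same arrays whose means chose the members, so high differences follow in part from the rule. TRAP and total RNA arrays of the same line, sex, treatment and batch gave 14 pairs. Each pair is taken as 1 mouse, although the labels name no mouse. Its total RNA was Pre-IP in batch 1 and Unbound in batch 2. The median difference over the members was between 2.78 and 3.61 log2 units in every pair. Of the 420 single differences of a member in a pair, 0 were below 0, the smallest was 0.106, and 346 (82.4%) reached 2.5. The lowest TRAP array lay above the highest total RNA array for 28 of the 30 members and for 6.26% of the probes detected on all TRAP arrays, values of the same contrast that chose the members. The 2 exceptions, named here after their values were seen, were ILMN_2795412, with a lowest TRAP value of 7.02 against a highest total RNA value of 8.26, and ILMN_2473811, with 6.22 against 6.37.

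The member with the largest difference that both lines shared was ILMN_2476405, at 4.61 log2 units, or 4.05 at its bound. On the 8 Slc6a2 TRAP arrays it ran from 8.46 to 10.41 with a median of 9.48, and on the 7 Slc6a4 TRAP arrays from 11.40 to 11.86 with a median of 11.68. In total RNA it was between 4.70 and 4.99 (median 4.78) on the Slc6a2 arrays and between 5.62 and 7.39 (median 6.71) on the Slc6a4 arrays. All 15 TRAP arrays were therefore above all total RNA arrays, and within each kind of RNA the Slc6a4 arrays were all above the Slc6a2 arrays. By measured signal ILMN_3009447 was next, at 4.26, but it was detected on no Slc6a2 total RNA array and is at 3.66 at its bound, under the 3.96 of ILMN_2896113. ILMN_3009447 ran from 8.06 to 9.53 (median 9.10) in Slc6a2 TRAP and from 8.58 to 10.09 (median 9.46) in Slc6a4 TRAP. Its total RNA values were 4.62 to 5.04 (median 4.82) and 4.53 to 6.06 (median 4.74). Here the lines overlapped in both kinds of RNA.

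**Figure D2:**
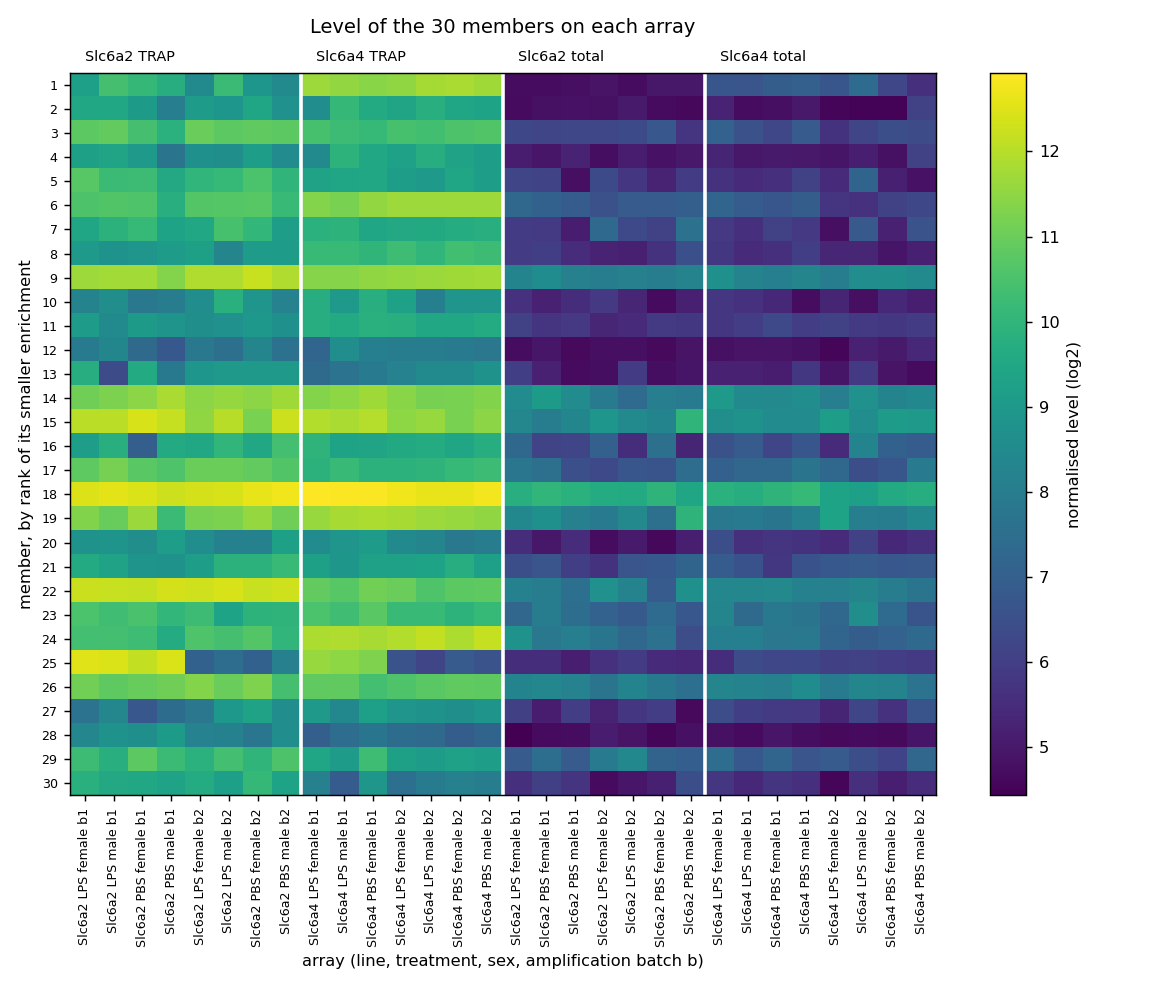
Normalized log2 level of the 30 members (rows, ordered by the smaller of their 2 enrichments) on the 30 arrays (columns, by line and kind of RNA). Every row steps down from TRAP to total RNA, from a mean of 7.82 to 12.63 over the TRAP arrays to a mean of 4.75 to 9.73 over the total RNA arrays.

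The median level of the members was even from array to array. It was between 9.58 and 10.18 log2 units on the Slc6a2 TRAP arrays and between 9.68 and 10.12 on the Slc6a4 TRAP arrays, against 5.99 to 6.46 and 5.90 to 6.63 on the total RNA arrays of the 2 lines. Single members scattered more in the Slc6a2 TRAP set, with a median SD of 0.39 over its 8 arrays against 0.20 over the 7 Slc6a4 arrays, and 26 of 30 had the larger SD in Slc6a2 TRAP. The same was seen for all probes detected on every TRAP array, where the median SDs were 0.41 and 0.21. One Slc6a2 TRAP array, that of the PBS male of batch 1, held the lowest value for 12 members (40%), while it held the lowest value for 17.3% of all probes detected on every TRAP array.

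About as many members escaped detection somewhere in total RNA as were detected throughout. On all 15 total RNA arrays 15 members (50%) had a detection p under 0.01, whereas 10882 of the 11094 probes detected on all TRAP arrays (98.1%) did. Detection on fewer than 3 total RNA arrays was seen for 4 members (13.3%) and for 8 of the 11094 probes (0.0721%), and detection on none for 2 members and 5 probes. The rule required a total RNA level far under the TRAP level, so these shares are a description of the set. It did not require a low total RNA level as such, and the members' means there ran from 4.75 to 9.73 log2 units. Members detected on fewer than 3 total RNA arrays may not be separate transcripts, which was not tested. Among them ILMN_3009447, ILMN_1219551 and ILMN_1256024 moved together over the 15 TRAP arrays once each line's mean was removed. Their pairwise r was 0.987, 0.934 and 0.899, against a median of 0.041 over all pairs of members. The only other pair with r over 0.8 was ILMN_2606295 and ILMN_2628647 (r = 0.878), both detected on all 15 total RNA arrays. Whether these 2 report the same transcript was not tested either. A single total RNA array detected between 17 and 26 members, with a median of 22. The Pre-IP arrays detected 21 to 26 (median 25) and the Unbound arrays 17 to 24 (median 20.5), or 168 of 210 possible detections (80%) against 166 of 240 (69.2%). Unbound arrays also detected fewer probes in all, at 20395 to 22652 against 21279 to 23122. Over the 12090 probes detected on some but not all total RNA arrays the shares were 49.5% in Pre-IP and 42.5% in Unbound RNA, and over the 13 members of that kind 69.2% and 44.2%. The mean level was lower in Unbound than in Pre-IP RNA for 21 of 30 members (70%), with a median difference of -0.19 log2 units, against 54.6% and -0.037 over the probes detected on all TRAP arrays. The part of the amplification batch in that difference cannot be told apart from the kind of RNA.

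The 2 members detected on no total RNA array were ILMN_1256024 and ILMN_2638324. ILMN_1256024 ran from 6.78 to 8.32 (median 7.72) in Slc6a2 TRAP and from 7.21 to 8.61 (median 7.99) in Slc6a4 TRAP, while its total RNA values stayed between 4.59 and 5.41. Because a probe that is not detected has only a bound, its TRAP level is given against the lowest signal among detected probes, and was at least 4.996-fold higher for Slc6a2 and at least 5.98-fold higher for Slc6a4. ILMN_2638324 ran from 7.77 to 9.08 (median 8.49) in Slc6a2 TRAP and from 6.95 to 7.72 (median 7.38) in Slc6a4 TRAP, with 4.44 to 5.07 in total RNA. Its bounds were at least 8.38-fold and at least 3.85-fold. Arrays of TRAP and total RNA did not overlap for either probe.

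On the Slc6a2 total RNA arrays 5 members were never detected, and on the Slc6a4 total RNA arrays 2. The bounds in the Slc6a2 line were at least 16.6-fold for ILMN_2476405, at least 12.6-fold for ILMN_3009447 and at least 10.7-fold for ILMN_1219551, the last named after its values were seen. The median enrichment with the bounds was 3.31 log2 units for Slc6a2 and 2.90 for Slc6a4.

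Among the 15 members detected on all total RNA arrays, ILMN_2896113 and ILMN_2606295 had the largest enrichment in the line where it was smaller. ILMN_2896113 ran from 9.87 to 10.98 (median 10.79) in Slc6a2 TRAP and from 10.11 to 10.61 (median 10.44) in Slc6a4 TRAP. Its total RNA values were 5.74 to 6.75 in the Slc6a2 line and 5.68 to 7.11 in the Slc6a4 line. ILMN_2606295 ran from 9.75 to 10.72 (median 10.60) in Slc6a2 TRAP and from 11.22 to 11.70 (median 11.67) in Slc6a4 TRAP, against 6.53 to 7.30 and 5.65 to 7.21 in total RNA. Lowest TRAP and highest total RNA arrays were 2.76 log2 units apart for ILMN_2896113, the widest such gap of the set.

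To ask whether the set was equally strong in both kinds of neuron, the 15 TRAP arrays were fitted together and the Slc6a2 line was set against the Slc6a4 line. Of the 30 members 7 were higher in Slc6a2 TRAP (23.3%), where 3.43% of the 21863 probes tested were called in that direction. Another 7 were higher in Slc6a4 TRAP (23.3%), against 5.16%. These calls are limma tests at a Benjamini-Hochberg adjusted p under 0.05 over all probes of the fit. Among the 11094 probes detected on all TRAP arrays, a closer background for members that had to be detected there, 4.64% were higher in Slc6a2 TRAP and 6.10% in Slc6a4 TRAP. The rule used these same TRAP arrays and required a high level in both lines, which limits but does not fix the line difference. Neither background is matched to the members for enrichment, so the shares describe the set. All 14 called members had the same sign in both amplification batches and in the 4 arrays of letter C. Those arrays are parts of the fit that gave the calls, so the shared sign is not separate support. The arrays of the 2 lines did not overlap for 10 members (33.3%), 5 in each direction, against 5.24% of the probes detected on all TRAP arrays.

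ILMN_1234944 had the largest difference toward the Slc6a2 line. Its Slc6a2 TRAP values ran from 9.22 to 10.08 (median 9.52) and its Slc6a4 TRAP values from 6.92 to 8.94 (median 8.01), with no overlap. The difference was 1.60 log2 units (SE 0.24, limma adjusted p = 0.0015), 1.44 in batch 1, 1.67 in batch 2 and 0.92 within letter C. ILMN_2715546 was tighter, with 12.17 to 12.40 (median 12.29) in Slc6a2 TRAP and 10.58 to 11.12 (median 10.82) in Slc6a4 TRAP. It differed by 1.44 (SE 0.076, limma adjusted p = 9.2e-07), by 1.29 and 1.53 in the batches, and by 1.43 within letter C. Neither probe differed by more than its error in total RNA, where the difference was 0.097 (SE 0.24) for ILMN_1234944 and -0.11 (SE 0.24) for ILMN_2715546.

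Toward the Slc6a4 line the largest differences were those of ILMN_2476405 and ILMN_2628647. ILMN_2476405, given by array above, was lower in Slc6a2 TRAP with a difference of -2.26 (SE 0.20, limma adjusted p = 5.4e-05), -1.70 in batch 1, -2.70 in batch 2 and -1.44 within letter C. ILMN_2628647 ran from 9.64 to 10.65 (median 10.39) in Slc6a2 TRAP and from 11.81 to 12.18 (median 11.90) in Slc6a4 TRAP. Its difference was -1.66 (SE 0.080, limma adjusted p = 4.7e-07), -1.62 and -1.61 in the batches, and -1.62 within letter C. Its total RNA values overlapped, at 6.44 to 8.76 in the Slc6a2 line and 6.95 to 8.09 in the Slc6a4 line.

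The other called members were 0.82 to 1.12 log2 units higher in Slc6a2 TRAP, or had a difference of -1.23 to -0.29. The smallest of them, ILMN_2739303, named after its values were seen, had a limma adjusted p of 0.0498. The 16 members not called differed by -0.64 to 0.57 with a median size of 0.26. For 12 of them the 95% confidence interval lay within 1 log2 unit (2-fold) of 0, and for the other 4 a 2-fold difference in at least 1 direction was inside it. Leaving out the PBS male of batch 2 from Slc6a2 TRAP, the array with the fewest detected probes, kept the counts at 7 and 7. They fell to 1 and 1 when the title letter was added to the fit, to 1 and 2 within letter C, and to 2 and 1 in batch 1 alone. The last 2 of these fits hold only 4 and 7 arrays.

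**Figure D3:**
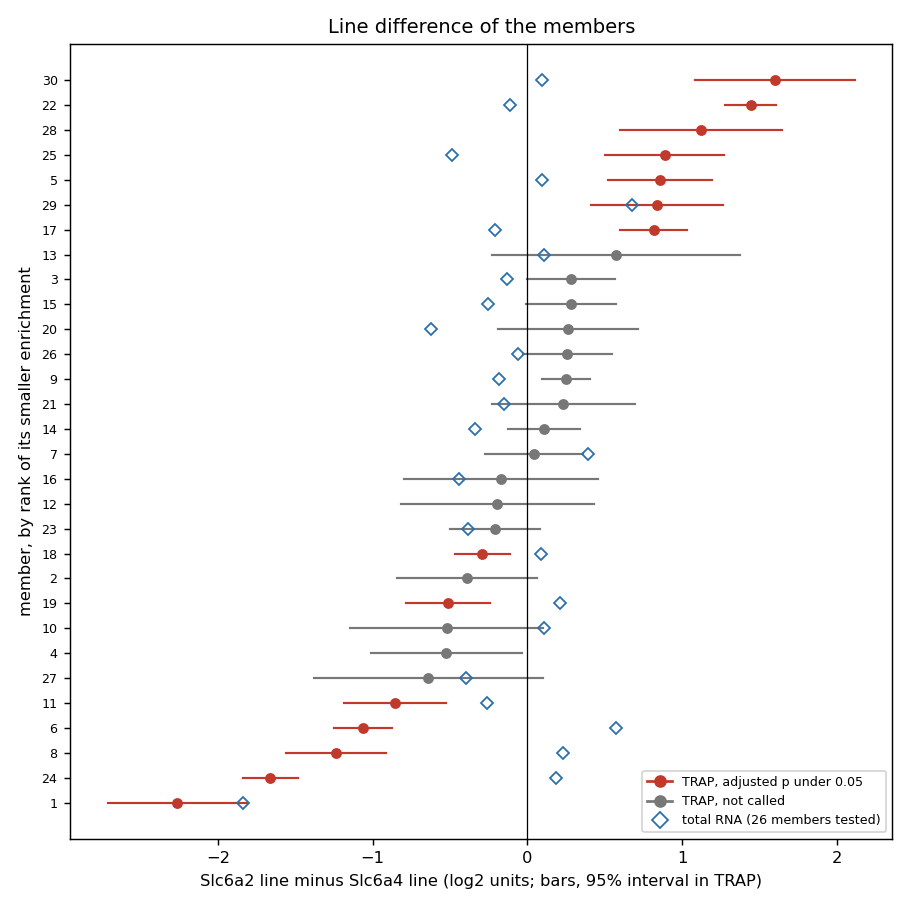
Difference between Slc6a2 and Slc6a4 TRAP RNA (log2 units, positive where Slc6a2 is higher) for each of the 30 members, with its 95% confidence interval, the 14 called members in red, and the difference in total RNA of the 26 members tested there as open diamonds. The TRAP differences run from -2.26 for ILMN_2476405 to 1.60 for ILMN_1234944, with 7 called members on each side of 0.

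In total RNA the lines were compared for the 26 members detected on at least 3 of those arrays. Only ILMN_2476405 was called, where 0.0201% of the 24914 probes tested were, and 5 members (19.2%) had an unadjusted p under 0.05, against 8.87% of the probes tested. The mean of ILMN_2476405 was 4.83 in the Slc6a2 line, where none of the 7 arrays detected it, and 6.67 in the Slc6a4 line, where all 8 did. The probe thus passed the filter of this fit through the Slc6a4 arrays alone, and the test set their signal against background. Its p is therefore a description and not support for a line difference. The difference was -1.84 log2 units (SE 0.25, limma adjusted p = 0.042), -2.10 in batch 1 and -1.59 in batch 2, and the Slc6a4 line was at least 2.42-fold higher when the undetected arrays were put at their bound. The call held when the PBS male of batch 1 or of batch 2 was left out of the Slc6a2 arrays, or the PBS male of batch 2 out of the Slc6a4 arrays. It was lost without any 1 of the other 12 total RNA arrays, with a difference between -2.06 and -1.67 throughout. It was also lost without the batch term (limma adjusted p = 0.058) and with the title letter in the fit (0.86). Of the 14 members called for the line in TRAP RNA, 13 could be tested in total RNA, and 5 of those had the same sign there.

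LPS changed no member past the threshold in TRAP RNA of either line. In Slc6a2 TRAP 0 of 30 members were called by limma, where 0.0732% of all tested probes (16 probes) were, and 3 (10%) had an unadjusted p under 0.05, against 10.3% of all tested probes. The differences between LPS and PBS ran from -0.37 to 0.60 log2 units with a median of 0.060, against a median of 0.017 over all tested probes. The 95% confidence interval lay within 1 log2 unit of 0 for 23 members, so a 2-fold change was outside the interval for those and inside it for 7.

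The smallest p in Slc6a2 TRAP were those of ILMN_2606295 and ILMN_2628647, both with a higher mean after LPS. The 2 probes moved together over the 15 TRAP arrays (r = 0.878 with line means removed), so they are not separate observations. ILMN_2606295 read 10.55 and 10.66 in LPS females and 10.62 and 10.69 in LPS males, against 10.57 and 10.72 in PBS females and 9.75 and 10.19 in PBS males. It differed by 0.32 (SE 0.11, limma adjusted p = 0.36), by 0.43 in batch 1 and 0.22 in batch 2. ILMN_2628647 read 10.39 and 10.59 in LPS females and 10.38 and 10.42 in LPS males, against 10.30 and 10.65 in PBS females and 9.64 and 10.04 in PBS males. Its difference was 0.29 (SE 0.11, limma adjusted p = 0.39). For both probes all LPS arrays lay within the spread of the PBS arrays, and the PBS males held the low values. Without the PBS male of batch 1, the lowest array for both, the differences were 0.27 and 0.23 (limma adjusted p = 0.34 and 0.38). The third member with a low p, ILMN_2637073, differed by 0.30 (limma adjusted p = 0.46). Limma called 0 members when either PBS array that stood apart, that of the female of batch 1 or that of the male of batch 2, or the PBS male of batch 1 was left out, with 1, 3 and 1 members at an unadjusted p under 0.05, in that order. The 16 probes called among all became 2, 30 and 51.

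In Slc6a4 TRAP 0 of 30 members were called by limma, where 0% of all tested probes were. An unadjusted p under 0.05 was seen for 0 members, against 0.933% of all tested probes. Differences ran from -0.66 to 0.20 with a median of -0.036, and the interval lay within 1 log2 unit of 0 for 25 members. ILMN_1234944, the smallest p, read 8.15 and 7.54 in LPS females and 6.92 and 7.92 in LPS males, against 8.94 and 8.15 in PBS females and 8.01 in the PBS male. Its difference was -0.66 (SE 0.35, limma adjusted p = 1.00), and the LPS and PBS arrays overlapped. With 1 array left out its difference was between -1.01 (without the LPS male of batch 2) and -0.40 (without the LPS male of batch 1), while leaving out the batch 1 females gave -0.80 for the LPS array and -0.41 for the PBS array. ILMN_1248692, with the next smallest p by the same rule, read 9.44 and 9.28 in LPS females and 9.14 and 9.11 in LPS males, against 10.28 and 9.29 in PBS females and 9.19 in the PBS male, a difference of -0.29 (SE 0.29). Without the PBS female of batch 1, the array at 10.28, the difference was -0.030, and without that of batch 2 it was -0.49. Leaving out the LPS female of batch 1, the array with little of the LPS response, gave 0 called members and 0 with an unadjusted p under 0.05. Differences were then -0.80 to 0.30 with a median of -0.044, and 1 probe was called among all. The interval lay within 1 log2 unit of 0 for 20 members in that fit, against 25 with all arrays.

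**Figure D4:**
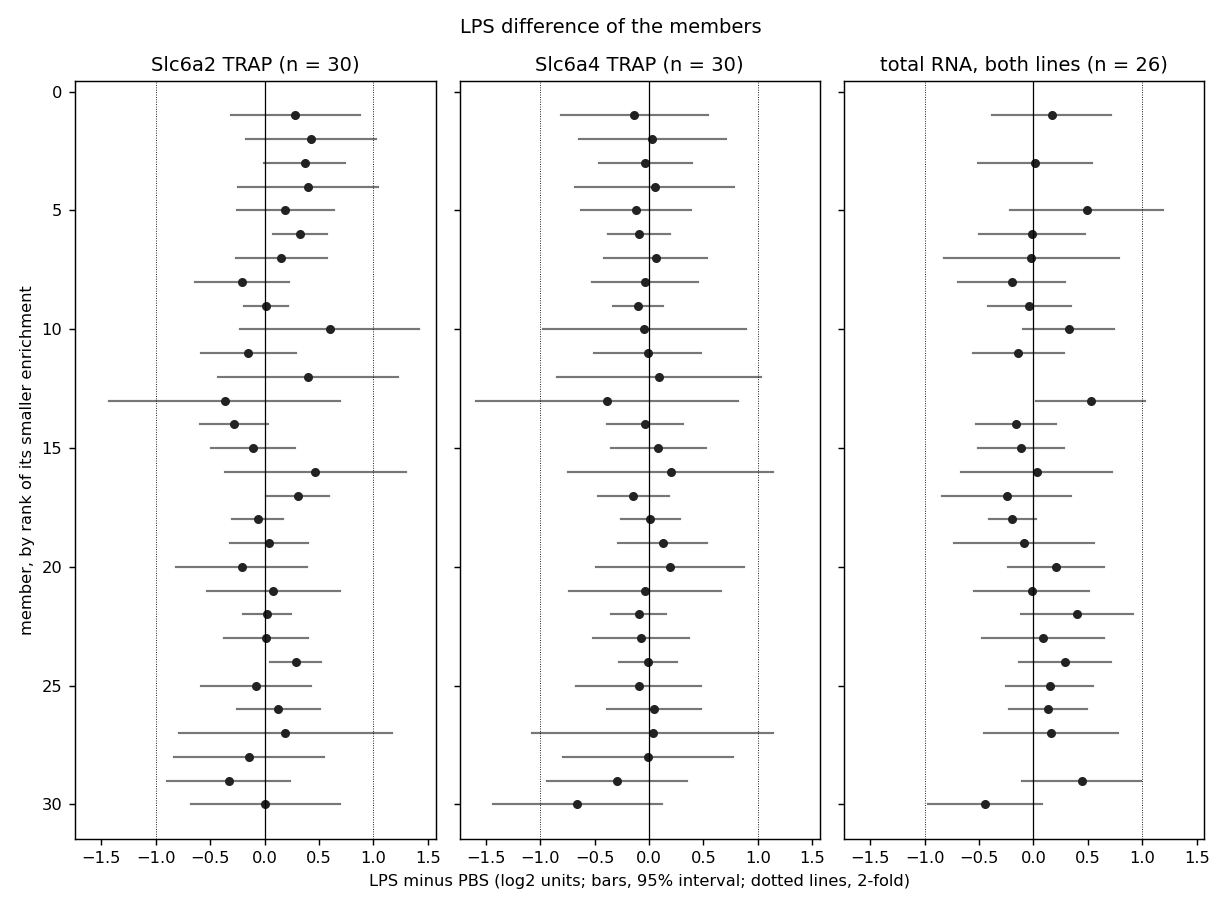
Difference between LPS and PBS (log2 units, with 95% confidence intervals) of the members in Slc6a2 TRAP, in Slc6a4 TRAP and in total RNA, 1 panel each, with dotted lines at a 2-fold difference. The differences lie between -0.37 and 0.60 in Slc6a2 TRAP, between -0.66 and 0.20 in Slc6a4 TRAP and between -0.44 and 0.52 in total RNA, and none was called.

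With both lines in 1 estimate, 0 members were called for LPS by limma (0% of all tested probes). For 0 members the unadjusted p was under 0.05, against 4.83% of all tested probes. This estimate was the tightest, with differences of -0.38 to 0.33 and an interval within 1 log2 unit of 0 for 29 of 30 members. ILMN_2628647 had 0.14 (SE 0.080) and ILMN_1248692 had -0.31 (SE 0.19). The LPS response had the same sign in both lines for 15 of 30 members. Its difference between the lines was called for 0 members by limma (0% of all tested probes). An unadjusted p under 0.05 was seen for 2 members (6.67%), against 3.88% of all tested probes. Those were ILMN_2606295, with 0.41 (SE 0.17), and ILMN_2637073, with 0.45 (SE 0.20), both more positive in the Slc6a2 line. Without the Slc6a4 LPS female of batch 1, 0 members were called by limma or had an unadjusted p under 0.05, for LPS in both lines (-0.40 to 0.33) and for the difference between the lines (-0.51 to 0.81). Among all probes 11 and 0 were then called, in that order, without an array singled out by its weak LPS response. The interval lay within 1 log2 unit of 0 for 28 and 15 members. Without the Slc6a2 PBS female of batch 1 there were 0 members called by limma in both (1 and 1 among all probes), and 0 and 1 members at an unadjusted p under 0.05. Without the Slc6a2 PBS male of batch 2 there were 0 members called (0 and 0 among all probes), and 1 and 3 such members. With all arrays, a 2-fold difference of the responses was within the interval for 12 of the 30 members.

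In total RNA LPS changed 0 of the 26 tested members by limma, where 0.0763% of all tested probes (19 probes) were called. An unadjusted p under 0.05 was seen for 1 member (3.85%), against 7.29% of all tested probes. That member, ILMN_2665095, read 6.00, 4.75 and 5.94 on the Slc6a2 LPS arrays against 4.68 to 5.21 on the Slc6a2 PBS arrays, and 4.93 to 5.88 against 4.69 to 5.81 in the Slc6a4 line. It was detected on 2 of those 3 LPS arrays and on none of the 4 PBS arrays, and on 1 LPS and 1 PBS array of the Slc6a4 line, so most of these values are at background. The difference of the measured signals was 0.52 (SE 0.23, limma adjusted p = 0.66), and LPS and PBS arrays overlapped in both lines. ILMN_2739303 followed with -0.20 (SE 0.099, limma adjusted p = 0.73). The interval lay within 1 log2 unit of 0 for 24 of the 26. Without the Slc6a4 LPS female of batch 1, limma called 0 members, with 1 at an unadjusted p under 0.05 and differences of -0.58 to 0.53. The 19 probes called among all became 122, but that array was singled out by probes called in this same contrast.

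Females and males did not differ past the threshold either. In TRAP RNA of both lines 0 of 30 members were called by limma, where 0.0137% of all tested probes (3 probes) were. An unadjusted p under 0.05 was seen for 1 member (3.33%), against 3.60% of all tested probes. ILMN_2675000 ran from 11.18 to 11.64 in Slc6a2 females and from 10.21 to 11.24 in Slc6a2 males, and from 11.61 to 11.86 against 11.53 to 11.82 in the Slc6a4 line. The sexes overlapped in both lines, and the difference was 0.34 (SE 0.12, limma adjusted p = 1.00). ILMN_2606295 differed by 0.19 (SE 0.086). The interval lay within 1 log2 unit of 0 for 28 members. In total RNA 0 of 26 members were called by limma, where 0.0321% of all tested probes (8 probes) were. For 0 members the unadjusted p was under 0.05, against 3.84% of all tested probes. There ILMN_2665095 had -0.33 (SE 0.23) and ILMN_2628647 had 0.25 (SE 0.19).

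The amplification batch moved 1 member far. ILMN_2473811 was called for batch by limma in TRAP RNA, where 0.403% of all tested probes (88 probes) were called. An unadjusted p under 0.05 for batch was seen for 7 of 30 members (23.3%), against 12.9% of all tested probes. On the batch 1 arrays ILMN_2473811 read 12.44, 12.44, 12.52 and 12.16 in Slc6a2 TRAP and 11.47, 11.62 and 11.27 in Slc6a4 TRAP. On the batch 2 arrays it read 7.06, 7.08, 8.15 and 7.46 in Slc6a2 TRAP and 6.86, 6.60, 6.61 and 6.22 in Slc6a4 TRAP. The batches did not overlap in either line, and batch 2 minus batch 1 was -4.93 log2 units (SE 0.17, limma adjusted p = 8.1e-08). In total RNA the batch difference was -0.018, with values from 5.15 to 6.37. Its enrichment was 6.98 in batch 1 and 1.83 in batch 2 of the Slc6a2 line, and 5.34 and 0.57 in the Slc6a4 line, so the probe met the threshold through batch 1 alone. The next largest batch difference of a member was 0.66.

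**Figure D5:**
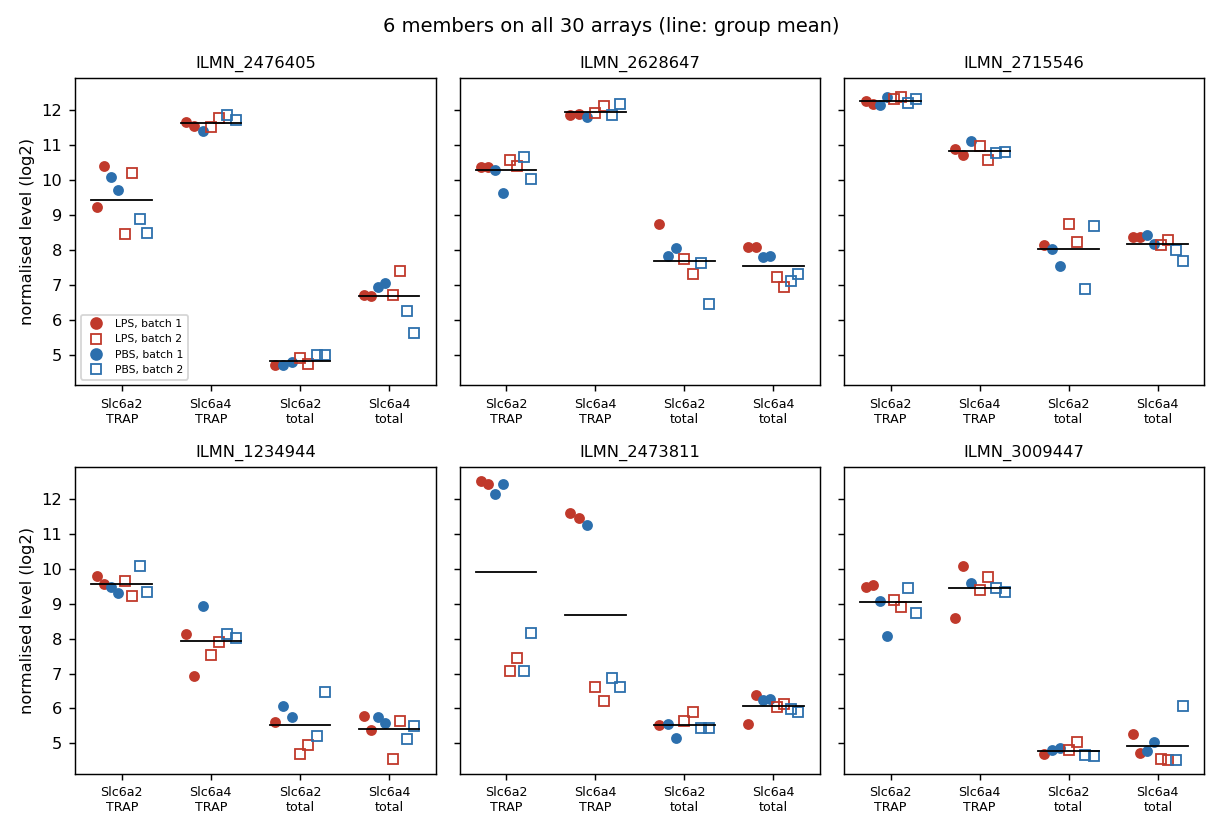
Normalized log2 level of 6 members on each of the 30 arrays, by line and kind of RNA, with LPS and PBS arrays in different colours, batch 1 as filled circles, batch 2 as open squares and the group mean as a line. ILMN_2473811 splits by batch in both TRAP sets and not in total RNA, ILMN_2476405 separates the lines in both kinds of RNA, ILMN_2628647, ILMN_2715546 and ILMN_1234944 separate them in TRAP RNA, and ILMN_3009447 overlaps between the lines.

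For the rest of the set the enrichment was steadier between batches, which are parts of the arrays that chose the members. The total RNA compared was Pre-IP in batch 1 and Unbound in batch 2. In both lines and both batches 22 members reached 2.5 log2 units and 27 reached 2, while 8 fell short of 2.5 in at least 1 line and batch. After the 0.57 of ILMN_2473811, the next lowest enrichment of a member in a line and batch was 1.83.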

How the data were processed

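Each of 30 mouse hindbrain RNA samples was hybridized to 1 Illumina bead array. The deposited table gives, for 45281 probes, an intensity per array that the authors had neither normalized nor background-subtracted, as judged from its values (8.2 to 60959.6). It also gives a deposited detection p-value per probe and array. Per the submitters' processing notes lumi was used, with neither version nor step named; the scanner's software and the way beads were summarised were not given in the sources used here. Gene names come with neither the file nor the reference tables, in which 0 of the IDs were found, so marker and gene lists could not be tested. Each array is read as 1 mouse sample, and the number of arrays limits the precision.

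Intensities were background-corrected with normexp using the detection p, given an offset of 16, quantile normalized over all 30 arrays and put on the log2 scale with neqc (limma 3.58.1, R 4.3.3). Levels are in these log2 units, and a difference understates a fold for dim probes. Probes with a detection p under 0.01 on at least 3 arrays of a fit were tested with lmFit and eBayes (trend), with 1 mean per line, sex and treatment and the amplification batch as a block, and Benjamini-Hochberg adjustment at 0.05 over the whole fit. TRAP and total RNA were fitted separately. The fits were tested on simulated data.

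The block comes from the batch that the labels give, which marks shared handling. Batch differences of the 7 complete groups correlated between groups with a mean r of 0.091 (0.036 to 0.13, 21 pairs) in TRAP and 0.22 (0.084 to 0.35) in total RNA.

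The members and the tests were chosen with earlier results of these data known. Named probes are the 2 called members with the largest change in each direction and the same sign in both batches, or the 2 with the smallest p where none was called. For the set they are the 2 with the largest smaller enrichment and the 2 detected on the most and on the fewest total RNA arrays. Alternatives changed the normalization, offset, filter, batch and letter terms, array weights, threshold and arrays left out.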

Additional observations from a re-analysis of the deposited data

Results flagged for a closer look

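Values of the 15 named members and the median of all members were examined for single arrays far from the rest within each of 4 sets of arrays (line by kind of RNA). Of 64 groups 3 held such an array, where chance alone marks about 1 in 20 groups.

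ILMN_3009447 read 6.06 log2 units on the Slc6a4 total RNA array of the PBS male of batch 2, against 5.25 on the nearest and 4.53 on the lowest array of that set, and this was the only total RNA array on which it was detected. ILMN_1248692 read 10.28 on the Slc6a4 TRAP array of the PBS female of batch 1, with the nearest array at 9.44 and the lowest at 9.11. ILMN_2675000 read 9.35 on the Slc6a4 total RNA array of the LPS female of batch 2, with the nearest at 8.41 and the lowest at 7.72. These 3 values lie on 3 different arrays, each was the highest of its set, and their source was not tested.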

How the results depend on the processing

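The number of members depended most on the processing. It was 71 at a threshold of 2 log2 units and 11 at 3, 15 with TRAP and total RNA normalized separately, 15 with an offset of 50, 8 without normexp and 52 in batch 1 alone, and 26 to 33 with 1 TRAP array left out. Median centring gave 30, of which 26 were shared, batch 2 alone 39 and a detection p under 0.05 gave 32.

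The 7 members higher in Slc6a2 TRAP became 1 with the title letter in the fit, 1 within letter C and 2 in batch 1 alone, and 5 to 8 with 1 array left out. The 7 higher in Slc6a4 TRAP became 1, 2 and 1 under the same settings, and 5 to 7 with 1 array left out. The single line call in total RNA became 0 with an offset of 50, without a filter on dim probes, with only probes detected on every array (where the probe was not tested), without the replicate block, with the title letter and in batch 2 alone, and 0 to 1 with 1 array left out. The replicate block changed no other call. The 1 member called for batch became 2 with median centring. The cause of these changes was not tested. Counts for LPS, for its line difference and for sex stayed at 0 in every alternative run, and no value of a called member changed sign. Letter C alone was not run for sex, which goes with treatment and batch there. Where a group's only array was left out, the contrast used the remaining groups. Signal over background limits the 7 values of enrichment, for 5 members, that are against a line's total RNA in which the probe was never detected.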
